A study of Mus musculus with 6 samples.

Results

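Angiogenin (gene symbol Ang) was 1 of 13971 genes that could be named on the array, and it was read by 2 oligonucleotide probes, GE34746 and GE117612. The gene was chosen on the log2 signals of its probes, because they disagree between Src-transgenic and wild-type mouse liver. The difference of each probe between the groups is therefore a description with no test. Gene expression was measured on 6 one-colour arrays, each from the liver of a C57BL/6 mouse aged 14 months. The Src-transgenic group (mice 1, 3 and 4) carried human c-Src, a tyrosine kinase and proto-oncogene, placed behind the mouse metallothionein promoter, and the wild-type group (controls 1, 2 and 4) carried no transgene. That promoter responds to zinc. The study states that zinc was usually not needed for induction, and the labels do not say which of these mice received it. The labels do not say either whether the sampled tissue held tumour, and further arrays that the study dropped for low signal were not analysed here.

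Angiogenin is a small secreted ribonuclease of the RNase A family, made by hepatocytes and found in plasma. It stimulates growth of blood vessels, enters cells through surface receptors and reaches the nucleolus, where it favours transcription of ribosomal RNA. In stressed cells it cuts transfer RNAs in the anticodon loop, and a cytosolic ribonuclease inhibitor holds it in check. In mouse and human the gene shares its promoter and its first noncoding exons with Rnase4, which encodes another secreted ribonuclease, and the transcripts are told apart by splicing to separate coding exons.

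In RefSeq's annotation of assembly GRCm38.p6, Ang lies on chromosome 14 with 2 listed transcripts, and Rnase4 begins at the same base. The window of 300 bases around this shared start, 250 bases before it and 50 after, is shown because Ang and Rnase4 are set side by side in the results. The first line is the shared window, chr14:51090827-51091126 on the plus strand, and the second is the window of a further start listed for Rnase4, chr14:51095750-51096049 on the plus strand. Capitals mark matches to the motifs searched on both strands.
Ang and Rnase4: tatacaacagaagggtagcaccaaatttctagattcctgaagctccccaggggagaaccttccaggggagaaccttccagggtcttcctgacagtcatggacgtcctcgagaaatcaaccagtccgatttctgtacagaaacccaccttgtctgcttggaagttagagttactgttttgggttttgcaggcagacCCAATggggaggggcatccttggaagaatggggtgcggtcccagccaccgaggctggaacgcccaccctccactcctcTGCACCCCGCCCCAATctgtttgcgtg
Rnase4: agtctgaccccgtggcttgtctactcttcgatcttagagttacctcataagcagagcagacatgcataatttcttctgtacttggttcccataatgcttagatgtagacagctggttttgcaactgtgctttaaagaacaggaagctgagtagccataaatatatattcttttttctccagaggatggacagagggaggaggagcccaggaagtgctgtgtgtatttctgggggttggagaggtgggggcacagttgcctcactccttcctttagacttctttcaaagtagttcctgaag
The shared window held CCAAT at bases 196 to 200 and 285 to 289, a motif present in 37.4% of the 32817 windows of this length. It also held a metal response element core, TGCACNC, at bases 274 to 280 (12.6% of windows) and a GC box, GGGCGG, on the minus strand at bases 280 to 285 (35.6% of windows). The metal response core, the GC box and the second CCAAT touch or overlap one another by single bases. All of them lie after the start, and only the first CCAAT lies before it. No match was found in either window for TATAAA (13.6% of windows), TGANTCA (7.81%), TTCNNNGAA (8.29%), the other metal response core TGCGCNC (15.4%), the HNF1 motif (0.00914%), CAAAGTCCA (0.475%) or TTNCGCAA (0.798%). The second window held no match to any of the motifs found in the first. A match is a run of letters and says nothing of whether a factor binds there.

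Some facts of the whole series bear on these values. The median probe signal was 94.8 to 117 on the Src-transgenic arrays and 53.8 to 93.4 on the wild-type arrays, so every transgenic array was brighter. Log2 values below were therefore quantile normalized, which gives all arrays the same distribution. The Src probe read 9.67, 8.48 and 7.71 on the log2 scale in transgenic mice 1, 3 and 4, and 6.65, 7.21 and 6.62 in wild-type controls 1, 2 and 4, a log2 change of 1.79 ± 0.51 (SE; limma adjusted p = 0.69), and it is not known if this mouse probe detects the human transgene. For the mouse's own metallothionein genes Mt1 and Mt2 the limma fit gave log2 changes of 3.71 ± 0.53 and 4.88 ± 0.44 (SE; limma adjusted p = 0.69 and 0.28). Transgenic mouse 4 stood apart, since Uty, Ddx3y and Eif2s3y, genes of the Y chromosome, were at background on its array and above it on the other 5. The fourth Y-linked gene measured, Kdm5d, was above background there and read 9.03, the highest of the 6 arrays. The labels give no sex, and values without this mouse are given for both Ang probes, Rnase4 and the genes most like GE117612.

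The tissue check used 9 measured hepatocyte markers, among them Alb, Ttr and Apoa1, which were above background on every array. Sums of marker signals, here and below, are of quantile-normalized values. For these 9 the sum was 214100 to 234100 on transgenic and 202700 to 226400 on wild-type arrays, and 0 of 9 were called by limma. Quantile normalization gives all arrays the same highest values, where markers such as Alb, Apoa1 and Apoa2 lie. The likeness of these sums is thus partly fixed by it, and nothing is read from it. Exocrine pancreas, which makes much secreted ribonuclease in mice, was represented by 7 probes summing to 583.7 to 695.8 on transgenic and 530.0 to 790.0 on wild-type arrays, with overlap. Of the 7, Prss2 and Cpa1 were above background on no array, Cpb1 on 1 of each group, and Pnlip, Cela1 and Rnase1 on all 6, while Cela2a was above it on 3 transgenic and 2 wild-type arrays. Intestinal and Paneth cell markers summed to 785.9 to 1110 on transgenic and 603.1 to 670.1 on wild-type arrays. The groups did not overlap for that sum, and its part in the results on Ang was not tested. Of the 7 markers, Cdx2, Lyz1, Mmp7 and Vil1 were above background on all 6 arrays, Itln1 on 1 transgenic array, and Reg3b and Reg3g on none. Vil1 and Itln1 were higher on all transgenic arrays, by 0.69 ± 0.31 and 0.84 ± 0.27, and Reg3g was lower on all, by -0.70 ± 0.19 (SE; limma adjusted p = 0.69 for each). Endothelial markers summed to 3213 to 4274 on transgenic and 3622 to 4758 on wild-type arrays, with overlap. In whole liver, fewer cells of a type and less RNA per cell cannot be told apart.

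Probe GE34746 separated the groups by a wide margin. Its background-subtracted signal was 4800, 4861 and 6360 in transgenic mice 1, 3 and 4, against 17.94, 39.82 and 32.37 in wild-type controls 1, 2 and 4. All 3 transgenic signals were far above the threshold for background and all 3 wild-type signals were below it. The threshold lay 3 scaled median absolute deviations above the median of the bacterial control spots, and the probe's signal stood at 126, 98.6 and 126 times that value on the transgenic arrays and 0.543, 0.900 and 0.779 times on the wild-type arrays. Its place within each array, which needs no normalization between arrays, showed the same split. At least 98.9% of the mouse probes were dimmer on each transgenic array, against 21.8%, 33.7% and 25.8% on the wild-type arrays.

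After quantile normalization GE34746 read 12.18, 12.24 and 12.31 in transgenic mice 1, 3 and 4, and 4.71, 5.49 and 4.98 in wild-type controls 1, 2 and 4 on the log2 scale. The means were 12.24 ± 0.06 in transgenic and 5.06 ± 0.40 in wild-type livers (SD, n = 3 each), a log2 change of 7.18 ± 0.25 (SE). The transgenic values had an SD of 0.06, and the wider wild-type spread was among values below background. Since all 3 wild-type signals were at background, the fold is a lower bound, at least 103-fold, which sets the transgenic mean against the higher of the probe's own value and the lowest value above background on each wild-type array. The bound covers neither the spread between arrays nor an error of the probe itself. It holds for quantile normalization without an offset, and the smaller log2 change with an offset is given with the other processing below.

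Probe GE117612 carries the same accession, NM_007447.2, and was above background on all 6 arrays. Its signal was 2184, 2276 and 4508 in transgenic mice 1, 3 and 4, against 1610, 1720 and 1689 in wild-type controls 1, 2 and 4. The log2 values were 11.03, 11.08 and 11.88 in transgenic mice and 10.94, 10.98 and 10.64 in wild-type controls. The lowest transgenic value exceeded the highest wild-type value by 0.04, and mouse 4 was the high one. The means were 11.33 ± 0.48 in transgenic and 10.85 ± 0.19 in wild-type livers (SD, n = 3 each), a log2 change of 0.47 ± 0.29 (SE). Without transgenic mouse 4 the log2 change was 0.20, and that of GE34746 was 7.16.

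**Figure D1:**
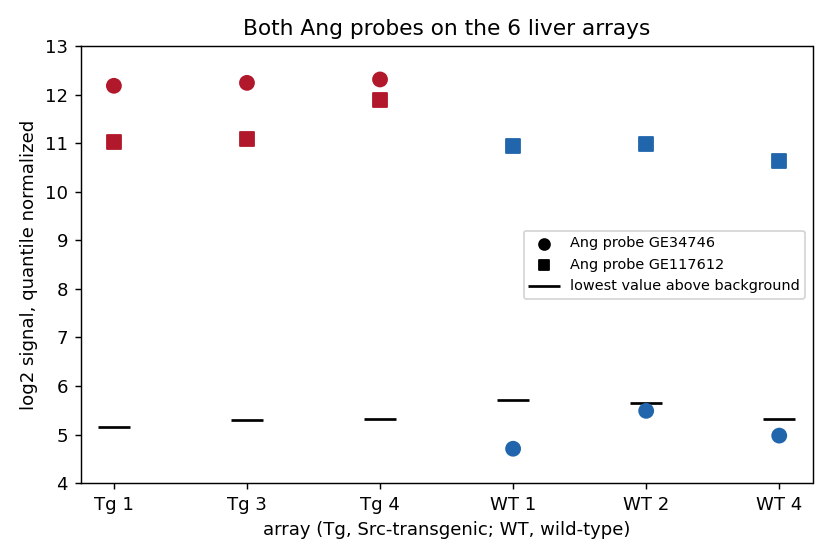
Quantile-normalized log2 signal (vertical axis) of Ang probes GE34746 (circles) and GE117612 (squares) on each of the 3 Src-transgenic (red) and 3 wild-type (blue) arrays, with a dash at the lowest value above background on that array. GE34746 lies between 12.18 and 12.31 on transgenic arrays and under the dash on all 3 wild-type arrays, while GE117612 lies between 10.64 and 11.88 on all 6.

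The authors' own scaling, which divides each array's signals by 1 constant, gave the same picture for GE34746 and another for GE117612. In the scaled values GE34746 read 50.6, 43.7 and 54.3 in transgenic mice and 0.334, 0.517 and 0.346 in wild-type controls. GE117612 read 23.0, 20.5 and 38.5 in transgenic mice and 29.9, 22.3 and 18.1 in wild-type controls, so the groups overlapped. On that scale its log2 change was 0.20, against 0.47 after quantile normalization, and scaling to the 75th percentile gave 0.21 with overlap as well. No scaling moved GE34746 below 6.98.

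The log2 value of GE34746 minus that of GE117612 was taken on each array. The zero of this difference has no meaning, since probes bind with unlike strength, and only its change between arrays is read. It was 1.15, 1.16 and 0.43 in transgenic mice 1, 3 and 4, and -6.23, -5.50 and -5.66 in wild-type controls 1, 2 and 4. The means were 0.91 ± 0.42 in transgenic and -5.80 ± 0.38 in wild-type livers (SD, n = 3 each), so the fitted disagreement was 6.71 on the log2 scale. Since GE34746 was at background in wild-type livers, this value is no exact size. With GE34746 set on each wild-type array to the higher of its own value and the lowest value above background, the disagreement was at least 6.21. That bound too holds for quantile normalization without an offset. Within each group the probe difference varied by less than 1 unit from array to array.

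Both probes carry the accession of the same one of the 2 transcripts that RefSeq lists for Ang, matched without its version. Probe sequences were not used here, so where on the transcript each probe sits, and whether either reads a related transcript, is unknown. Spots were placed at unrelated positions, GE34746 at row 236 and column 2 near an edge of the array and GE117612 at row 349 and column 76.

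A bright or dim patch of an array would shift neighbouring spots together, so those within 4 rows and columns of each Ang spot were examined. Around GE34746 there were 44 other mouse probes, whose log2 changes ran from -0.49 to 0.93 with a median of -0.17, and in 0 of the 44 did the lowest transgenic value exceed the highest wild-type value. Around GE117612 there were 68, from -1.06 to 1.01 with a median of 0.02, and 13 of them had transgenic values that were all higher, an order that 10% of all probes had. The local median deviation around GE34746 was 0.11, -0.09 and -0.23 on the transgenic arrays of mice 1, 3 and 4, and 0.27, -0.09 and 0.11 on the wild-type arrays. When such local deviations were subtracted the log2 change was 7.35 for GE34746 and 0.37 for GE117612, where the groups of GE117612 overlapped.

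**Figure D2:**
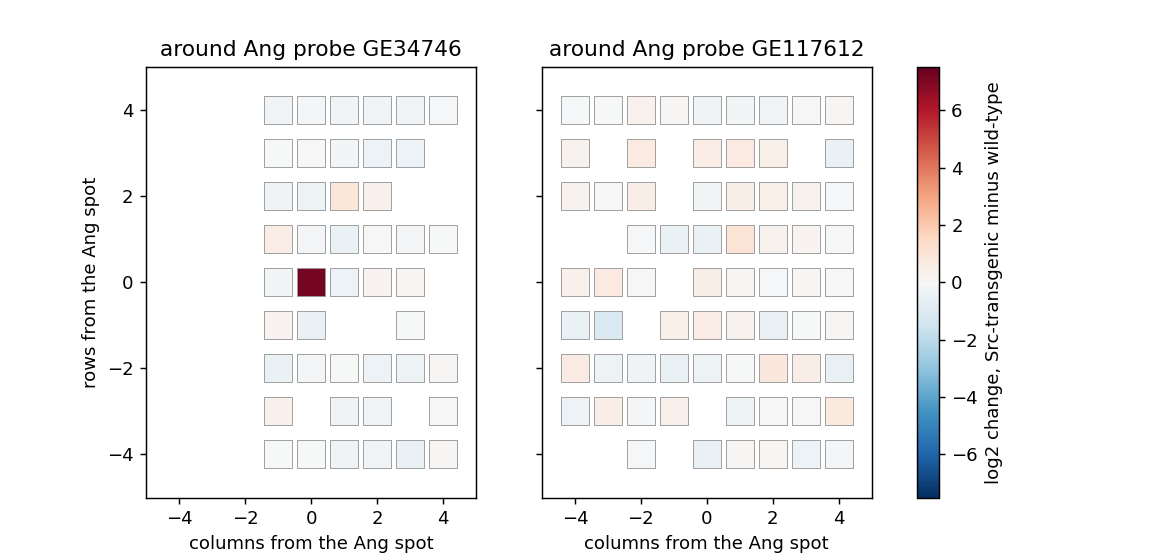
Log2 change (colour, Src-transgenic minus wild-type) of each mouse probe within 4 rows and columns of the spots of GE34746 (left) and GE117612 (right), by distance in rows and columns; blank places hold no mouse probe. The GE34746 spot, at 7.18, is the one dark square in its panel, and its 44 neighbours lie between -0.49 and 0.93.

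Across all 34967 mouse probes, limma called 1 at an adjusted p under 0.05, which is 0.00286% of those tested, and that probe was GE34746. The contrast is the one that chose the gene, so nothing is read from this call. It was made with 3 arrays in each group and was absent without transgenic mouse 1, when 0 probes were called. In 10% of probes the lowest transgenic value exceeded the highest wild-type value, as it did for both Ang probes, and 5.90% had the reverse order. A positive log2 change was found in 51.6%. With p under 0.05 before adjustment, limma gave 1517 higher (4.34%) and 951 lower (2.72%) probes, a split that median scaling turned to 958 higher and 1342 lower.

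GE34746 ranked 1 of 34967 both in log2 change and in the gap between its lowest transgenic and highest wild-type value, 6.69. The gene was chosen on this contrast, so nothing is read from that rank. The second largest gap was 4.20. A pattern of above background on all 3 transgenic arrays and on 0 wild-type arrays was shared by 369 probes (1.06%), whose median log2 change was 0.65, and the opposite pattern by 22 (0.0629%). The transgenic arrays were also the brighter ones by median signal, and the part of brightness in these counts was not tested. GE117612 ranked 5387 in log2 change and 2967 in gap.

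Disagreement between probes of the same accession was seen for other genes as well. There were 784 accessions with several probes, 753 of them with 2. The median disagreement in log2 change was 0.29, the 95th percentile 1.63 and the 99th percentile 2.63, and 98 accessions (12.5%) exceeded 1. Ang had 6.71, at least 6.21 by the bound above, and Tbx15, a transcription factor gene, came after it with 4.36. Ang was chosen on this disagreement, so nothing is read from its place in the order. Among the 525 accessions whose every probe was above background on all arrays of at least 1 group, the median was 0.24, and the second largest disagreement after Ang was 3.17. Ang passes this filter only through the transgenic arrays, where GE34746 is high, and Tbx15 does not pass it. Nothing is read from the place of Ang in this set either. Among the 465 accessions whose every probe was above background on all arrays, which leave out Ang, the median was 0.22 and the largest disagreement 3.17.

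In each of the 4 accessions next in size after Ang among all with several probes, a probe read highest on the array of wild-type control 4. Other arrays stood high as well in some of them. For Tbx15, probe GE33765 read 4.95, 5.23 and 10.34 in transgenic mice 1, 3 and 4, and 4.52, 4.03 and 4.39 in wild-type controls. Probe GE1411706 of the same gene read 6.51, 6.09 and 6.95 in transgenic mice and 7.02, 6.53 and 11.50 in wild-type controls. A single array thus stood high for each Tbx15 probe, mouse 4 in one case and control 4 in the other. For Tceal1, at 3.17, probe GE102461 read 6.18, 5.67 and 6.24 in transgenic mice and 7.13, 6.66 and 11.45 in wild-type controls, again with control 4 alone far from the rest. For Klra3, at 3.73, probe GE1425735 read 4.13, 3.51 and 4.49 in transgenic mice and 4.75, 6.65 and 10.28 in wild-type controls, and the other probe was above background on no array. For Slc7a13, at 3.45, more than 1 array carried the disagreement. Its probe GE124486 read 5.25, 5.30 and 4.77 in transgenic mice and 5.45, 8.41 and 8.77 in wild-type controls. Its probe GE102546 read 4.55, 4.63 and 4.97 in transgenic mice and 3.81, 3.68 and 3.61 in wild-type controls without overlap, and was above background on no array.

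To describe this, the difference between the most unlike probes of each accession was taken on every array, and the gap between its lowest transgenic and highest wild-type value was recorded. For Ang this gap was 5.93, or at least 5.65 with the same bound, and it too follows from how the gene was chosen. The second largest was 1.53, for Xlr4b, and 3 of the 784 accessions (0.383%) had a gap over 1. A gap above 0 was seen in 119 accessions (15.2%).

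**Figure D3:**
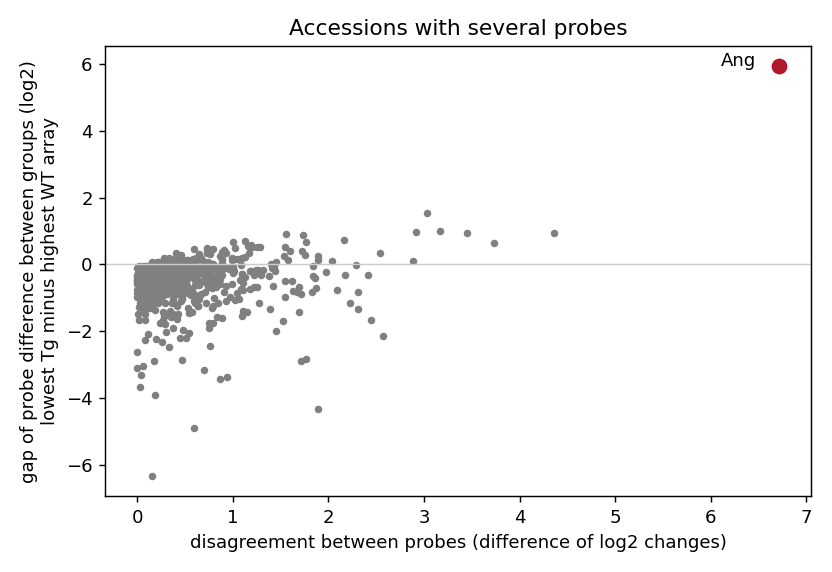
Each point is 1 of 784 accessions with several probes; the horizontal axis is the difference between its highest and lowest log2 change, and the vertical axis the lowest Src-transgenic minus the highest wild-type value of the probe difference per array. Ang lies at 6.71 and 5.93, apart from all others, of which Tbx15 reaches 4.36 on the horizontal and Xlr4b 1.53 on the vertical axis.

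Rnase4, the ribonuclease gene that shares the start shown above, has 1 probe, which was above background on all 6 arrays. Its signal was 26510, 26240 and 29260 in transgenic mice 1, 3 and 4, and 16400, 17830 and 18220 in wild-type controls 1, 2 and 4. The quantile-normalized log2 values were 14.72, 14.75 and 14.91 in transgenic mice and 14.12, 14.24 and 14.18 in wild-type controls, with no overlap. The log2 change of 0.61 ± 0.18 (SE) missed the threshold (limma adjusted p = 0.69). It depended on the scaling. In the authors' scaled values Rnase4 read 279, 236 and 250 in transgenic mice and 305, 231 and 195 in wild-type controls, where the groups overlap and the log2 change is 0.09 ± 0.25 (SE).

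The log2 changes of all 3 probes were smaller with median scaling than with quantile normalization. Rnase4 went from 0.61 to 0.09, GE117612 from 0.47 to 0.20 and GE34746 from 7.18 to 6.98. No value of Rnase4 came near the change of GE34746 under any processing tried. The range for Rnase4 was 0.09 to 0.67.

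**Figure D4:**
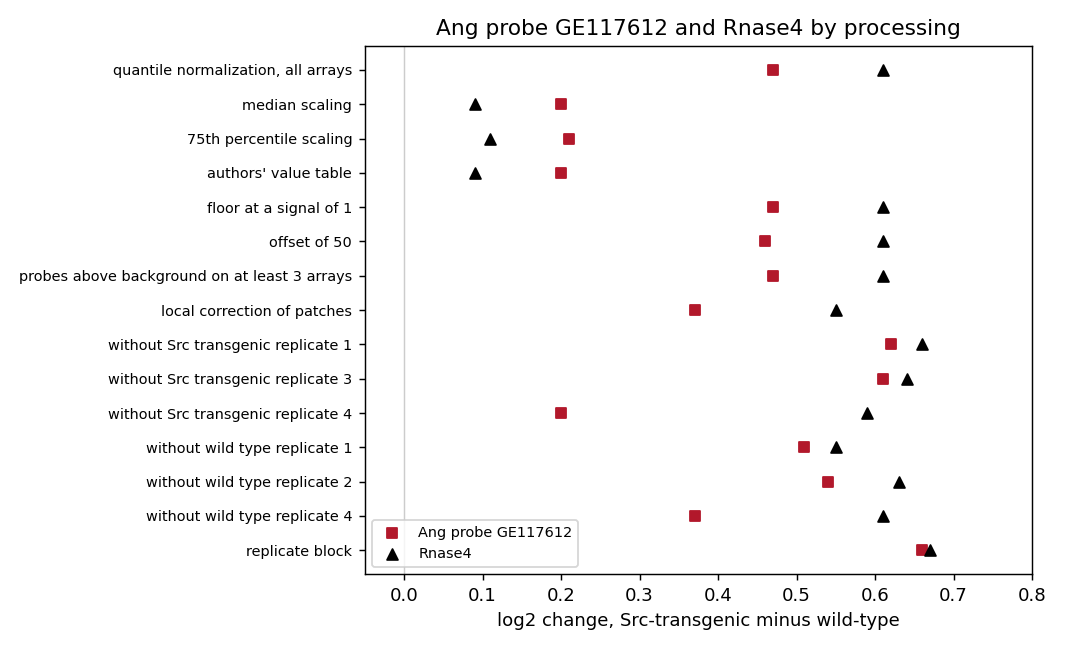
Log2 change, Src-transgenic minus wild-type, of Ang probe GE117612 (squares) and of Rnase4 (triangles) by processing, 1 per line. Array weights, the trended and robust spread and the fit with 1 probe per gene are not drawn. Both are at their lowest, 0.20 and 0.09, with median scaling and the authors' value table, and GE117612 is at 0.20 without transgenic mouse 4 as well, where Rnase4 is at 0.59.

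Several genes near Ang on chromosome 14 belong to its own family. Of the 10 annotated genes on either side, 10 were protein-coding and 7 were transfer RNA genes, and 6 had a probe, all of them on the Rnase4 side. In order from Ang these were Rnase4, Eddm3b, Rnase6, Rnase1, Rnase2b and Ear14, of which all but Eddm3b belong to the RNase A family. In 4 of the 6 the transgenic values were all higher, as in 10% of all probes, and limma called 0 of 6. Before adjustment 2 were higher with p under 0.05, beside 4.34% of all probes. With median scaling the count was 2 of 6 (7.97% of all probes), with scaling to the 75th percentile 3 of 6 (8.57%) and with local correction of patches 1 of 6 (8.94%).

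Rnase6, a secreted antimicrobial ribonuclease found in monocytes and macrophages, read 8.59, 8.37 and 8.50 in transgenic mice and 7.86, 8.25 and 8.34 in wild-type controls. The highest wild-type value was 0.03 below the lowest transgenic one, and the log2 change was 0.34 ± 0.21 (SE; limma adjusted p = 0.71). Macrophage and Kupffer cell markers, with 4 measured, summed to 2723 to 5182 on transgenic and 2920 to 3632 on wild-type arrays, with overlap. Rnase2b, an eosinophil-type ribonuclease, had 0.61 ± 0.24 and was above background on 2 transgenic and 0 wild-type arrays. Ear14, of the same eosinophil-associated group, had 0.45 ± 0.20 and was above background on 3 transgenic and 1 wild-type arrays (limma adjusted p = 0.69 for each). Rnase1, the pancreatic-type ribonuclease, had 0.10 ± 0.24 with overlap (limma adjusted p = 0.91), and Eddm3b, an epididymal protein gene, -0.07 ± 0.37 and was above background on no array (limma adjusted p = 0.96).

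**Figure D5:**
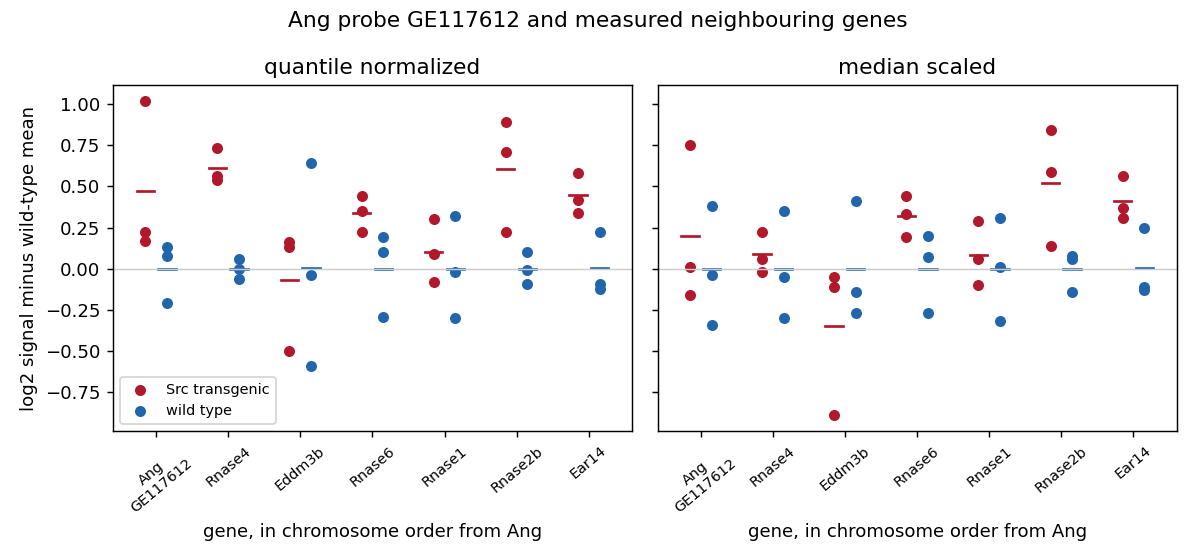
Log2 signal minus the wild-type mean (vertical axis) of Ang probe GE117612 and the 6 measured neighbouring genes in chromosome order, by array, for Src-transgenic (red) and wild-type (blue) livers, with quantile normalization (left) and median scaling (right); bars are group means of 3 arrays. Rnase4 stands at 0.61 on the left with no overlap, and at 0.09 with overlap on the right, while Rnase2b and Ear14 change little between the panels (0.61 and 0.52, 0.45 and 0.42).

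Over a wider stretch of 50 annotated genes on either side, 26 genes had 27 probes. The transgenic values were all higher in 5 (18.5%) and all lower in 3 (11.1%), beside 10% and 5.90% of all probes. The median log2 change was -0.04, the range -2.82 to 1.33, and limma called 0, with 2 higher and 2 lower at an unadjusted p under 0.05.

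Of the RNase A family, 9 genes besides Ang were measured of 20 listed, with 10 probes. The mouse paralogs Ang2, Ang3, Ang4, Ang5 and Ang6 were not among them, so how far these were expressed was not analysed here. Limma called 0 of the 10 probes. Before adjustment Rnase4 and Rnase2b were higher with p under 0.05 and an Ear1 probe was lower, beside 4.34% and 2.72% of all probes. The median log2 change was 0.22, against 0.01 for all probes, and 0.09 with median scaling, where all probes had -0.08. Of the 10 probes 6 were positive, beside 51.6% of all probes. The groups did not overlap in 4 higher and 1 lower probes, beside 10% and 5.90% of all probes, and the 4 higher ones are the neighbours of Ang whose counts under other scalings are given above.

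Ear1, another eosinophil-associated ribonuclease, was like Ang in having 2 probes of the same accession with unlike values. Probe GE117772 was above background on all 6 arrays and read 5.52, 5.92 and 7.02 in transgenic mice 1, 3 and 4, against 7.63, 7.19 and 7.30 in wild-type controls. All transgenic values were lower, by -1.22 ± 0.41 (SE; limma adjusted p = 0.69). Probe GE34981 was above background on no array and had -0.05 ± 0.36 (limma adjusted p = 0.97). The Ear genes are close paralogs that probes may not separate. Rnase10, a gene of the epididymis, had -0.04 ± 0.28, and Rnase9, also epididymal and above background on a single array, 1.33 ± 0.64. Ear6 had -0.25 ± 0.30.

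Genes that act on angiogenin or with it gave no call. Of 9 listed, 8 were measured with 9 probes, limma called 0, and 0 passed at an unadjusted p under 0.05 in either direction. The median log2 change was -0.09, and -0.31 with median scaling, where all probes had -0.08. Rnh1, the ribonuclease inhibitor that binds angiogenin tightly in the cytosol, was read by 2 probes. GE130671 read 10.84, 10.90 and 10.93 in transgenic mice and 11.19, 10.82 and 10.80 in wild-type controls, a log2 change of -0.05 ± 0.20 (SE), and GE102397 had -0.09 ± 0.25 (limma adjusted p = 0.95 and 0.93).

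Among cell-surface partners, Egfr, an epidermal growth factor receptor reported to bind angiogenin in human cells, read 10.84, 10.30 and 10.11 in transgenic mice and 10.98, 11.14 and 10.75 in wild-type controls. The groups overlapped and the log2 change was -0.54 ± 0.26 (SE; limma adjusted p = 0.69). Sdc4, the heparan sulfate proteoglycan syndecan-4, had -0.26 ± 0.24 (0.78). Plxnb2, the plexin receptor for angiogenin, had no matched probe. Of binding partners, the activin antagonist Fst had 0.56 ± 0.47, with 0.13 to 1.02 when single arrays were left out, and the matrix protein gene Fbln1 0.02 ± 0.30, above background on no array. Actn2, a muscle actinin, was above background on 1 transgenic and 1 wild-type array. The transfer RNA methyltransferases Trdmt1 and Nsun2, whose marks shield transfer RNAs from cleavage by angiogenin, had -0.40 ± 0.32 and 0.82 ± 0.92. Nsun2 read 9.44 in transgenic mouse 3 and 5.93 to 6.93 on the other 5 arrays.

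Angiogenic factors and their receptors were set beside Ang for its named activity. Of 33 listed genes 30 were measured with 31 probes. Limma called 0, and 0 passed at an unadjusted p under 0.05, with 15 positive, 16 negative and a median log2 change of -0.05. The groups did not overlap in 2 of 31, both higher, beside 10% of all probes. These were Pgf, a placental relative of the vascular endothelial growth factors, at 0.83 ± 0.36, and Angpt2, a ligand of the endothelial receptor Tie2, at 0.45 ± 0.20 (limma adjusted p = 0.69 for each). Nrp1, a co-receptor of vascular endothelial growth factor, had -0.31 ± 0.21 (0.72). Probe GE33243 of Hgf, the hepatocyte growth factor gene, had -2.29 ± 1.36 (0.71) and read 9.31 in wild-type control 2 against 3.89 and 5.87 in the other two controls. Without that control its log2 change was -0.82, and a second Hgf probe, GE1566589, had 0.02 ± 0.22.

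Of 13 listed transcription factors of liver, including those that maintain hepatocyte genes, 11 were measured. Limma called 0 and 0 passed at an unadjusted p under 0.05, with a median log2 change of -0.07. The groups did not overlap in 4 higher probes, Prox1 and Hnf4a among them, and 1 lower, Cebpa. Of all probes 10% were higher and 5.90% lower without overlap. The 4 with the smallest p were Prox1 at 0.66 ± 0.28, Foxa3 at 0.70 ± 0.31, Hnf4a at 0.45 ± 0.21 and Cebpa at -0.51 ± 0.22 (SE; limma adjusted p = 0.69 for each). Hnf4a, a nuclear receptor that maintains hepatocyte identity, read 10.32, 10.34 and 10.74 in transgenic mice and 10.10, 10.11 and 9.84 in wild-type controls without overlap, and local correction of patches turned its log2 change to -0.06 and that of Prox1 to 0.13.

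The genes whose pattern over the 6 arrays was most like each Ang probe were found by Pearson's r among 11525 named probes above background on at least 3 arrays. The measure compares shape and not size. The values of GE34746 fall into separate clusters by group, so a high r with it says little more than that a gene's values do the same. The 5 named genes nearest to it were Eef1akmt4 (r = 0.995), Fgf15 (0.989), Cts3 (0.989), Ptch1 (0.987) and Banp (0.984). Their log2 changes were 0.28 to 0.57, small beside 7.18. Rnase4 had r = 0.98 with GE34746 and 0.75 with GE117612, and the 2 Ang probes had 0.64 with each other. Nearest to GE117612 were Isg20l2 (0.992), Cpz (0.991), Sae1 (0.990), Nt5e (0.990) and Cyp4a31 (0.989), each highest in transgenic mouse 4. Their log2 changes were 0.29 to 1.70, and without that mouse 0.10 to 0.65.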

How the data were processed

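Per the labels, poly(A)+ RNA within total liver RNA was amplified to biotin cRNA, detected in 1 colour with Alexa-647 streptavidin. The deposited intensity of each spot is linear and background-subtracted, per the file headers. A second deposited intensity column, equal to the authors' value table on all 34967 mouse probes, holds each array's signals over a single number, and its column medians were 1.00. Image software is not given in the sources used here.

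Each array held 35587 spots, of which 620 bacterial control spots were left out. Signals under each array's 1st percentile of positive signals (4.72 to 5.75) were raised to it, and log2 values were quantile normalized with no dim-probe filter. The background threshold, 33.0 to 50.6, came from 570 control spots without the brightest control. Accessions, without versions, were matched to RefSeq's GRCm38.p6 table and named 14763 probes. Probes with other accessions were left unnamed. Promoter windows are RefSeq's, build GRCm38.p6.

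Every probe was tested separately with limma 3.58.1 in R 4.3.3 (lmFit, eBayes, two-sided, Benjamini-Hochberg over 34967 probes), after tests on simulated data. SE is limma's. Between 62.6% and 71.7% of probes were above background per array, and the number of arrays limits precision. The named genes were the label checks, all members of the ribonuclease and partner lists, up to 4 of each other list by p, measured neighbours and the 5 nearest patterns per Ang probe. Members and lists were chosen with earlier results of these data known. The numbers 1 and 4, shared by both groups, are not stated to pair mice. The alternatives are other scalings, floors, filters, spread models, arrays left out, a replicate block and local correction of patches. Figures were drawn with matplotlib 3.10.9.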

Additional observations from a re-analysis of the deposited data

How the results depend on the processing

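With 3 arrays in each group no alternative changed the direction of either Ang probe or of their disagreement. An offset of 50 gave 5.86 for GE34746 and 5.40 for the disagreement. Leaving out single arrays gave 6.92 to 7.40 for GE34746, 0.20 to 0.62 for GE117612 and 6.41 to 6.96 for the disagreement. No other accession disagreed more than Ang under any setting where this was counted. It was not counted with array weights, the trended and robust spread or 1 probe per gene. The number over 1 log2 unit was 43 with the offset, 40 among probes above background on at least 3 arrays and 99 to 130 with single arrays left out. The count of probes called higher was 0 to 2 and of those called lower 0 to 1 with single arrays left out. It was 0 higher without transgenic replicate 1, and 2 without transgenic replicate 4, where the unnamed probe GE115078 joined. Without wild-type replicate 1 the unnamed probe GE1410659 was called lower. With 1 probe per gene, which drops GE34746, 0 were called. With the label number as a replicate block, 0 were called higher, and the median log2 change was 0.13 for angiogenic factors and 0.18 for liver transcription factors; same-numbered arrays had deviations that correlated at 0.06 for both numbers.

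The median log2 change of the RNase A family was 0.09, 0.10 and 0.09 with median scaling, the 75th percentile and the authors' value table, 0.34 with 1 probe per gene and 0.15 to 0.34 with single arrays left out. For angiogenin partners the same 3 scalings gave -0.31, -0.29 and -0.31, and single arrays left out -0.25 to 0.04. The range with single arrays left out was -0.09 to 0.05 for angiogenic factors and -0.11 to 0.14 for liver transcription factors.

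Of 45 named probes 13 turned direction at least once and 0 gained a call. Fbln1 had -0.04, -0.03 and -0.04 under the 3 scalings, -0.04 with local correction and -0.24 with the replicate block. Local correction gave -0.06 for Hnf4a and 0.09 for Eddm3b. Array weights gave 0.04 for Ear1 GE34981, 0.18 for Uty and 0.02 for Eddm3b. The replicate block gave 0.13 for Rnase10, -0.26 for Nsun2, -0.04 for Rnase1 and 0.10 for Ear1 GE34981. With single arrays left out the ranges were -0.25 to 0.08 for Rnh1 GE102397, -0.27 to 1.43 for Nsun2, -0.24 to 0.27 for Ear1 GE34981, -0.16 to 0.23 for Fbln1, -1.94 to 0.88 for Actn2, -0.25 to 0.14 for Rnase10, -2.10 to 0.40 for Ddx3y, -2.04 to 0.09 for Eif2s3y, -0.47 to 0.48 for Uty, -0.39 to 0.25 for Eddm3b, -0.11 to 0.08 for Rnh1 GE130671 and -0.05 to 0.26 for Rnase1. The cause was not tested in any of these cases, beyond fewer probes or arrays where a setting leaves them out.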

Other observations

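Of the 369 probes above background on all 3 transgenic and 0 wild-type arrays, 5 besides GE34746 are named here after their values were seen. The unnamed probe GE115078, with accession BC031432.1, read 10.32, 9.87 and 8.02 in transgenic mice 1, 3 and 4, and 3.75, 3.82 and 3.75 in wild-type controls 1, 2 and 4. All 3 wild-type signals were at background, and the transgenic mean was at least 14.3-fold higher (adjusted p of 0.31 by limma). Its signal was 1346, 1057 and 340.2 in transgenic mice, so mouse 4 was the lowest, where for both Ang probes mouse 4 was the highest. Without mouse 4 its log2 change was 6.30, against 5.63 with all arrays. Its gap of 4.20 was the second largest after GE34746.

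The unnamed probes GE1527057 and GE1433796 were above background on all 3 transgenic arrays and on 0 wild-type arrays, by at least 2.42-fold and 2.18-fold (adjusted p = 0.28 by limma for each). Prrx2, a homeobox gene, read 5.21, 9.12 and 8.01 in transgenic mice and 3.78, 4.08 and 2.38 in wild-type controls, by at least 3.69-fold (adjusted p = 0.69 by limma). Probe GE33736 of the sulfotransferase gene Sult2a2 read 6.72, 5.93 and 13.23 in transgenic mice and 4.75, 4.71 and 4.63 in wild-type controls. Most of its difference thus lay in mouse 4. Its log2 change was 3.93, against 1.39 for a second Sult2a2 probe, GE1406765. The spread among transgenic arrays was 0.06 (SD) for GE34746. It was 0.24 for GE1433796, 0.34 for GE1527057, 1.22 for GE115078, 2.01 for Prrx2 and 4.00 for GE33736 of Sult2a2.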
